A study of Mus musculus with 3 samples.

Results

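The genes described here are 8 genes of lipid handling and cholesterol efflux, Abca1, Abcg1, Apoe, Lpl, Scarb1, Plin2, Fabp4 and Srebf1, out of 21851 protein-coding genes with an annotated coding transcription start site (TSS). They were picked by name for their function and not by a measured value. Open chromatin at their promoters and within 50 kb of them was mapped by DNase-seq, in which the nuclease DNase I cuts DNA where chromatin is accessible, in primary monocytes of B6CASTF1/J mice, a first-generation cross of the strains C57BL/6J and CAST/EiJ. All 3 libraries formed 1 group, labelled female, adult, 2 months old and virgin, with no treatment or transgene named. They carry the labels replicate 1, 2 and 4, each with a biosample record of its own but with the same donor identifier. Separate animals are not stated, so every SD below is the spread between libraries and possibly only technical. There being a single group, no conditions could be compared and no test was run.

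Monocytes are circulating phagocytes that can enter tissue and become macrophages, which take up lipoproteins and must return the surplus cholesterol to the blood. In that pathway the liver X receptors (LXRs) sense oxysterols and, bound to DNA with retinoid X receptors (RXRs), activate the exporters Abca1 and Abcg1, the lipoprotein Apoe and the lipogenic regulator Srebf1. Cholesterol and fatty acids that stay in the cell are esterified and stored in lipid droplets.

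A promoter peak was a deposited peak that overlapped the 1 kb on either side of any coding TSS of a gene. A distal region was a stretch of merged peaks outside all such windows and within 50 kb of the gene's most upstream coding TSS, and it was called recurrent when all 3 libraries had a peak in it. The peak height is the authors' own signal value per peak, whose scale is not stated, so it is also given as a percentile among the promoter peaks of genes, or among all peaks, of the same library. In such bulk samples, fewer cells with an open site and less cutting per cell cannot be told apart. A footprint is a short stretch of low cleavage inside open DNA, as the authors called it, and can mark a bound protein.

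The libraries held 54046 peaks in replicate 1, 42657 in replicate 2 and 48980 in replicate 4, with 144028, 107955 and 119597 footprints in the same order of replicates. Read totals were not used here and the depth is unknown. The median promoter peak was 3.6, 3.13 and 4.65 high in replicates 1, 2 and 4, so heights in replicate 4 run above those of the other libraries. Of 63420 merged regions, 54.3% were seen in all 3 libraries. As a check of the label, a promoter peak was present in every library at 6 of 8 monocyte markers (Csf1r, Cx3cr1, Itgam, Spi1, Cd14 and Cd68). The share over all protein-coding genes was 50.5%. Ly6c2 had one in 1 library and Ccr2 in none. The count was 2 of 5 for markers of tissue macrophages (Mertk and Adgre1), 0 of 6 for adipocytes, 0 of 5 for hepatocytes, and 0 of 4 each for B cells, T cells, neutrophil granules and the erythroid lineage. Plin1 and Camp were among the lineage genes seen in some libraries. Among genes with a promoter peak in all 3 libraries, Csf1r, Cx3cr1, Itgam and Cd14 were low, at the percentiles 12, 9.57, 9.24 and 15.3. Spi1 lay at 46.9 and Cd68 at 69.1. The macrophage markers Adgre1 and Mertk lay at 11.8 and 19.1, so height does not set most of these monocyte markers apart from them.

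Promoters of the 8 genes fell into 3 kinds. The exporters Abca1 and Abcg1, the lipoprotein receptor Scarb1, the droplet coat protein gene Plin2 and the transcription factor gene Srebf1 carried a promoter peak in each library. Lpl and Apoe had low promoter peaks in 2 libraries and 1 library, and Fabp4 had none. The count of 5 of 8 stands beside 50.5% of all protein-coding genes (11029 genes), and the same 5 genes had a footprint inside a promoter peak in all 3 libraries, beside 48.2% of all genes. These shares are near the background and say nothing particular about the 8 genes. All 8 genes had at least 1 recurrent distal region, against 59% of all genes. This is not particular to them. Every monocyte marker had at least 1 as well. So did every gene in 2 of the lists of other lipid genes below, storage and hydrolysis, and cholesterol and lipoprotein transport. Some genes of the other lipid lists had none.

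**Figure D1:**
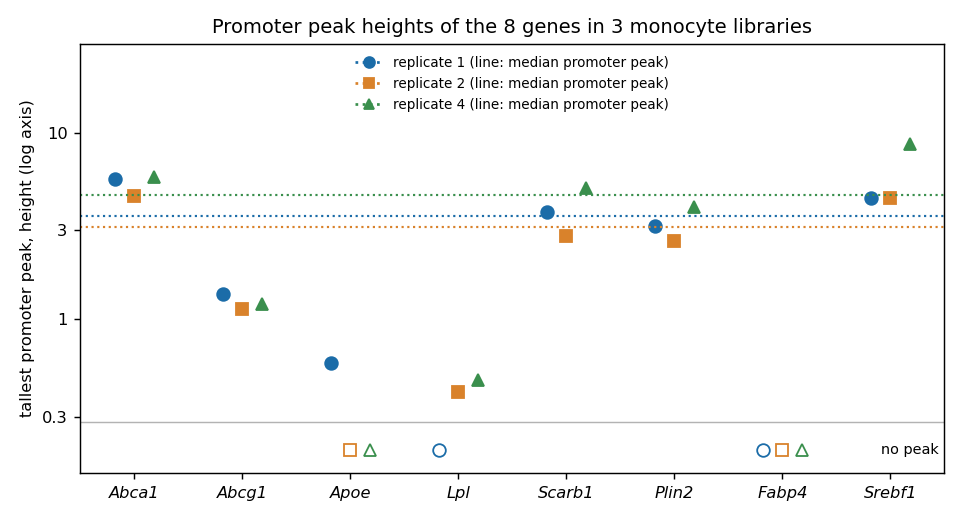
Height of the tallest promoter peak of each gene (vertical axis, log scale, the authors' units) in replicates 1, 2 and 4 (symbols), with the median promoter peak of each library as a dotted line and open symbols for no peak. Abca1 and Srebf1 stand highest, Abcg1 lies between 1.13 and 1.37, and Fabp4 has no peak in any library.

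Ranked by the height of the tallest promoter peak, Srebf1 averaged 5.89 ± 2.46 and Abca1 5.35 ± 0.684 (SD, n = 3 libraries). Abca1 was the higher of these in replicates 1 and 2 and Srebf1 in replicate 4, so their order is not settled by these libraries. Scarb1 followed at 3.87 ± 1.12 and Plin2 at 3.27 ± 0.705, and Scarb1 was the taller in each library although the means differ by less than either SD. Abcg1 came last of the 5 at 1.24 ± 0.123, below the other 4 in every library. Its peak in replicate 4 lay at another site than in the other libraries, as described below. With a promoter window of 2000 bp either side its mean was 1.51. The Abca1 peak ranked here is intronic and lies at the edge of the window. With a window of 500 bp either side the mean of Abca1 was 2.86, below those of Scarb1 and Plin2, which did not change. Among the 11029 genes with a promoter peak in all 3 libraries, whose median was 4.04, Srebf1 lay at the percentile 67.7, Abca1 at 63, Scarb1 at 48, Plin2 at 41.3 and Abcg1 at 13.2.

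Abca1 (ENSMUSG00000015243.4, chr4:53030787-53159895, minus strand, GRCm38.p6, the build called mm10) encodes the transporter that loads cholesterol and phospholipid onto lipid-poor apolipoprotein A-I. Its tallest promoter peak was 5.69, 4.57 and 5.8 high in replicates 1, 2 and 4. That peak does not sit at the TSS. It lies in an intron at chr4:53158721-53158940, centred 1.06 kb into the gene, and reaches the promoter window only with its edge. The region over the TSS itself, chr4:53159861-53160120, had heights of 2.55, 2.7 and 3.34, lower than the intronic region in each library. With a promoter window of 500 bp either side the intronic region counts as distal and is then taller than the promoter region. Both sequences are shown 5′ to 3′ on the strand of the gene because they are the tallest sites of the gene, with capitals for bases under footprints of all 3 libraries. The first is the RefSeq promoter, chr4:53159846-53160145, which runs from 250 bases before the start to 50 after it, and the second is the intronic region.
Abca1 promoter: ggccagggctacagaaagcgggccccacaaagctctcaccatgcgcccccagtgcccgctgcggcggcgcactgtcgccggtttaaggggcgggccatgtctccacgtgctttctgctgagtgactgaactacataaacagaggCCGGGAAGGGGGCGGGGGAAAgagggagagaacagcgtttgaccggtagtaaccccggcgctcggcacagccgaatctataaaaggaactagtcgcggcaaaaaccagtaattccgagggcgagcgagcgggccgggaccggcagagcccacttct
Abca1 intronic region: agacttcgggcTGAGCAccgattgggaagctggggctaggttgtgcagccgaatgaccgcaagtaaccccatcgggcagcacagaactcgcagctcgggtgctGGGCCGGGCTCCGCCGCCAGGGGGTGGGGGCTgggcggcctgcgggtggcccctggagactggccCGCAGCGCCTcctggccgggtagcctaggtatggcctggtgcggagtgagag

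The capitals in the Abca1 promoter are 1 stretch of 21 bases, and the footprints that make it up ran from -106 to -85 in replicate 1, from -111 to -84 in replicate 2 and from -110 to -86 in replicate 4, counted from the start. It contains GGGCGG, the core letters bound by Sp and KLF factors, at -97 to -92. GGGCGG was found on either strand in 35.7% of the 32851 RefSeq promoters and in 29.7% of the 34441 recurrent regions (the central 200 bp of each), and 42.1% of the regions with a match had one under footprints of all 3 libraries. In the intronic region 48 bases in 3 stretches lay under footprints of all 3 libraries, the longest of 32 bases.

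An LXR and RXR pair binds a repeat of AGGTCA with a spacing of 4 bases (DR4), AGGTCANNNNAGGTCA. With up to 3 mismatches in its 12 fixed bases, a limit added after the sequences were seen, the Abca1 promoter held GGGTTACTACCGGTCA at -67 to -52 on the strand opposite to the gene, in the shown sequence as its reverse complement. The intronic region held GGGTTACTTGCGGTCA at chr4:53158872-53158887. Another match, GGGTTACTCTCGGTCA, lay at chr4:53115990-53116005 in an intronic distal region of the same gene, 43.8 kb from the start. None of these 3 lay under a footprint in any library, where a match counted as footprinted if at least 50% of it was covered. At up to 3 mismatches DR4 matched 21.9% of promoters and 17.1% of recurrent regions, so a match at this limit is common. Of the recurrent regions with a match, 12.3% had one under footprints of all 3 libraries. Most matches thus lacked such footprints, and their absence here does not show that the sites are unbound.

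The letters that the 3 Abca1 matches share, GGGTTACTNNCGGTCA, were rare. They occurred in 3 of 32851 RefSeq promoters (0.00913%), those of Abca1, Srebf1 and Fasn, the fatty acid synthase gene. They occurred in 6 of 34441 recurrent regions (0.0174%), of which 3 belong to Abca1, 1 to Abcg1 and 2 lie nearest to the stearoyl-CoA desaturase genes Scd2 and Scd3, at 9.39 kb and 10.5 kb from their starts. The letters were taken from the Abca1 matches, so Abca1 is there by construction. They were chosen after the matches at Abcg1 and Srebf1 had been seen as well. The counts therefore give no support to a pattern among the 8 genes. The matches at Fasn, Scd2 and Scd3 came out of the search. No region of the 6 had the match under footprints of all 3 libraries, and in the matches at the 8 genes no library had one. A match is a run of letters and not a measured site of binding.

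**Figure D2:**
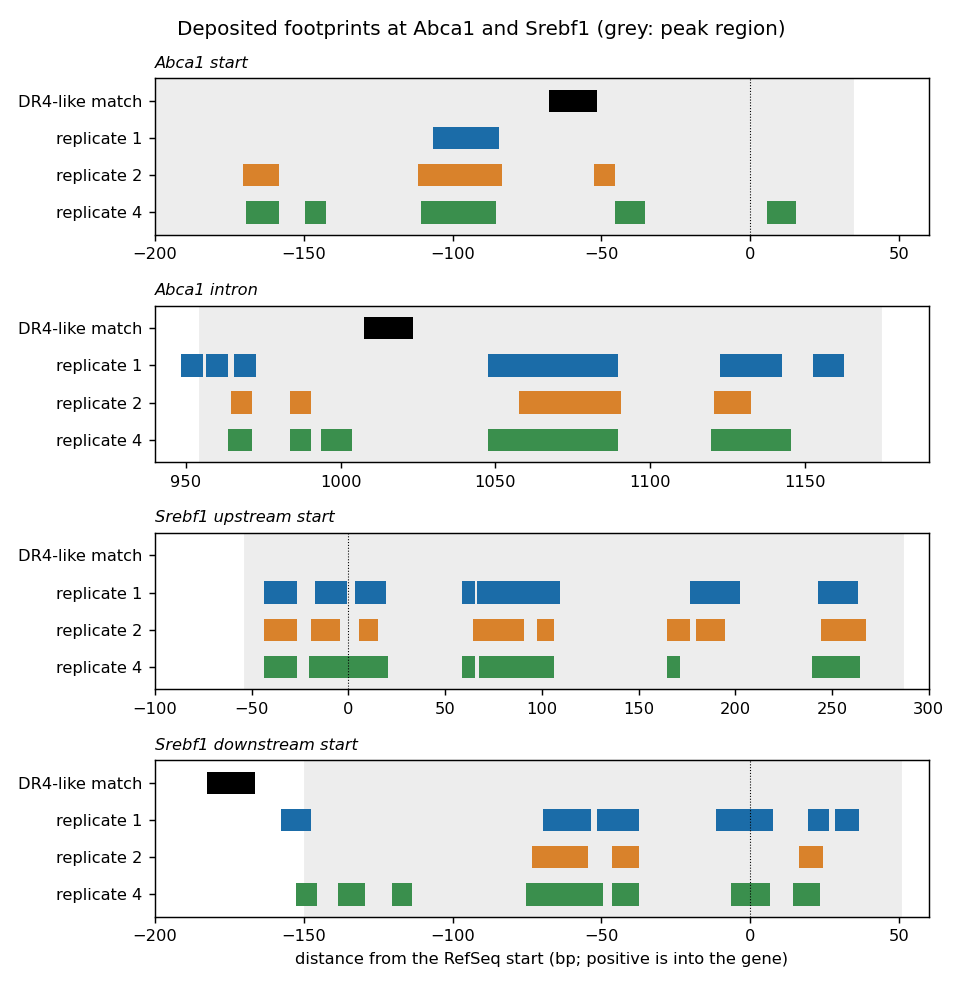
Footprints in replicates 1, 2 and 4 (bars in rows) and matches to the shared DR4-like letters (black) by distance in bp from the RefSeq start, at the Abca1 start, the intronic region of Abca1, and the upstream and downstream starts of Srebf1, with peak regions in grey. Footprints of the 3 libraries share 21 bases that begin at -106 of Abca1, and the black matches have no footprint over 50% of their length.

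Beyond its promoter Abca1 had 10 distal regions, of which 4 were recurrent. The tallest 2, at 39.3 kb and 37.9 kb into the gene, are intronic (chr4:53120381-53120720 and chr4:53121901-53122100). The first measured 2.15, 2.07 and 2.34 in replicates 1, 2 and 4, and the second 2.25, 1.78 and 2.52. These heights lay between the percentiles 72.1 and 78.9 of the peaks of each library. The only recurrent region upstream, centred 36.3 kb before the start at chr4:53196081-53196280, measured 1.52, 1.14 and 1.4. Another 6 regions were seen in 1 or 2 libraries only and were at most 0.842 high.

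Abcg1 (ENSMUSG00000024030.7, chr17:31057675-31117988, plus strand) encodes the transporter that passes cholesterol to mature high-density lipoprotein. It had the reverse layout, with low promoter peaks and tall regions far upstream. Its tallest promoter peak measured 1.37, 1.13 and 1.21 in replicates 1, 2 and 4, between the percentiles 14.8 and 21.1 of promoter peaks. The region over the TSS, chr17:31057597-31058041, measured 0.849, 0.665 and 1.21. An intronic region centred 1.14 kb into the gene, chr17:31058621-31059040, measured 1.37, 1.13 and 2.03, but in replicate 4 its peak fell just outside the promoter window and counted as distal. In the shorter peak lists that the authors also deposited, Abcg1 lost its promoter peak in at least 1 library.

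The tallest region of Abcg1 lay 19.1 kb upstream in intergenic DNA, chr17:31038461-31038680, with heights of 3.89, 3.29 and 4.68 in replicates 1, 2 and 4. Its neighbour 17.9 kb upstream, chr17:31039701-31039920, had 2.28, 1.7 and 2.65. The tallest distal region was 2.84, 2.91 and 3.87 times as tall as the tallest promoter peak in replicates 1, 2 and 4. The mean was 3.21 ± 0.574 (SD, n = 3). The promoter peak used was the intronic one in replicates 1 and 2 but the one over the TSS in replicate 4. There the intronic peak of 2.03 fell outside the window, so the ratio of replicate 4, the mean and the SD mix different sites. The distal region was taller than either promoter site in every library. In all Abcg1 had 6 recurrent distal regions, the most of the 8 genes and at the percentile 94.7 of all genes. The sequences of the tallest one and of the region 15.8 kb into the gene, chr17:31073401-31073620, follow on the strand of the gene, with capitals for bases under footprints of all 3 libraries. The second is shown for its DR4-like match.
Abcg1 upstream region: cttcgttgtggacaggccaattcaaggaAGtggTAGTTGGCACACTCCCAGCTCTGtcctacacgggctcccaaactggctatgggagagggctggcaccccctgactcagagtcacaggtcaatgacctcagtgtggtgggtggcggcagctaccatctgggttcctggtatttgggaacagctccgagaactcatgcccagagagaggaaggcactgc
Abcg1 intronic region: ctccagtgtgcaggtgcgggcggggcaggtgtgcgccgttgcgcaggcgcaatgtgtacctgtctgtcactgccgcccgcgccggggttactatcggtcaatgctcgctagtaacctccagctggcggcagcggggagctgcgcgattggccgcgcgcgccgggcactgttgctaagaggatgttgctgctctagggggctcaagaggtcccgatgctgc

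In the upstream region 25 bases lay under footprints of all 3 libraries, and 2 libraries had a footprint over TGACTCA, a match to the AP-1 letters TGANTCA found in 7.66% of recurrent regions. AP-1 is the Fos and Jun family. The intronic region, with heights of 1.34, 0.683 and 0.718, had no base under footprints of all 3 libraries. It held GGGTTACTATCGGTCA at chr17:31073485-31073500, the same letters outside the spacer as at Abca1. Within up to 2 mismatches of DR4, Abcg1 had AGGTTACTTCAGGGCA in the region 17.9 kb upstream and AGGTAACTGTCGGTCA in the region at 1.14 kb, and Plin2 had AGGTGAATTCAGGTCC in its region 25.2 kb upstream. These 3 of 40 regions, or 7.5%, stand beside 2.53% of all recurrent regions, each searched in its central 200 bp. Outside that centre, the region over the Abcg1 TSS held AGAGCACCCCAGGTCA. None of these matches was under a footprint in any library. Of all recurrent regions with a match at up to 2 mismatches, 19.6% had one under footprints of all 3 libraries.

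Apoe (ENSMUSG00000002985.16, chr7:19696109-19699188, minus strand) encodes apolipoprotein E, a ligand of lipoprotein receptors that macrophages secrete with cholesterol. Its promoter had a peak in replicate 1 alone, 0.585 high and at the percentile 5.61 of promoter peaks of that library. The authors' false discovery rate (FDR) of cleavage fell under 0.05 over 95 bp of the 2922 bp of its promoter windows in replicate 1, with a best value of 0.0182, and nowhere in replicates 2 and 4. The gene lies in a cluster with Apoc1, Apoc2 and Apoc4 between the genes Clptm1 and Tomm40, and the promoter regions of those outer genes were much taller. Tomm40 measured 10.9, 8.55 and 15.2 and Clptm1 7.4, 6.27 and 9.44 in replicates 1, 2 and 4.

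Apoe had 3 recurrent distal regions. The same 3 regions lie within 50 kb of the coding starts of Apoc1, Apoc2 and Apoc4, so the window does not assign them to Apoe alone. The tallest lay 30.1 kb downstream of the Apoe start, between Apoc2 and Clptm1 at chr7:19668981-19669180, with heights of 4.01, 3.42 and 5.88. By its mean of 4.44 ± 1.28 (SD, n = 3) it ranked next to the tallest recurrent distal region of the 8 genes, one of Srebf1 at 4.81 ± 0.959, and in replicate 4 it was the taller of the pair. A region 2.05 kb upstream, chr7:19701141-19701340, measured 1.11, 0.931 and 1.53 and contains a start that RefSeq predicts for an Apoe transcript. With a promoter window of 2000 bp either side it counts as promoter, and Apoe then has a promoter peak in each library. The sequence of the tallest region, on the strand of Apoe and with capitals for bases under footprints of all 3 libraries, is shown because those bases form 1 run of 26.
Apoe downstream region: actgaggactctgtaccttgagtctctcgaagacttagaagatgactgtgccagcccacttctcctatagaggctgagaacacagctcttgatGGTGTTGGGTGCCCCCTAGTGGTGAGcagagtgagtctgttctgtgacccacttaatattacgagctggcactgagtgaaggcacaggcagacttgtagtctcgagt

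That run contains the reverse complement of CCACTAGGGGGC, a match to core letters of the architectural factor CTCF, which are CCA, AG and GGC with 2 free bases between each. The CTCF search was added after the sequences were seen. It matched 6 of the 40 recurrent promoter and distal regions of the 8 genes, or 15%, beside 13.2% of all recurrent regions, a share near the background. The other 5 were upstream regions, of Abcg1 at 45.9 kb and 38 kb, of Apoe at 2.05 kb, of Scarb1 at 27.7 kb and of Plin2 at 25.2 kb. In 5 of the 6 the match lay under footprints of all 3 libraries, and at Apoe 2.05 kb upstream under those of 2. Of all 4543 regions with a match, 68.1% had it under footprints of all 3 libraries.

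Lpl (ENSMUSG00000015568.16, chr8:68880491-68907448, plus strand) encodes lipoprotein lipase, which frees fatty acids from circulating triglyceride. Its promoter window held a peak of 0.408 in replicate 2 and one of 0.47 in replicate 4 and none in replicate 1. These 2 peaks do not overlap, since one lies 0.856 kb and the other 0.159 kb into the gene, and they ranked at the percentiles 1.11 and 1.91 of promoter peaks. The FDR was under 0.05 over 45 bp in replicate 2 and 115 bp in replicate 4. Lpl also had the fewest distal regions of the 8 genes, 3 in all with 1 recurrent, at 42.7 kb upstream (chr8:68837701-68837900) with heights of 0.594, 0.559 and 0.842. Leaving out replicate 1 adds Lpl to the genes with a promoter peak in every remaining library, by peaks at different places.

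Scarb1 (ENSMUSG00000037936.15, chr5:125277087-125341094, minus strand) encodes scavenger receptor class B type 1, which takes up cholesteryl esters from high-density lipoprotein and can pass cholesterol back to it. Its promoter region spans the TSS, chr5:125340981-125341220, and measured 3.76, 2.8 and 5.04 in replicates 1, 2 and 4, close to the median promoter peak of each library. A total of 23 of its bases lay under footprints of all 3 libraries. It had 5 recurrent distal regions. Those at 7.55 kb, 17.3 kb and 27.7 kb upstream were the tallest, with means of 2.16 ± 0.468, 1.93 ± 0.53 and 1.25 ± 0.281 (SD, n = 3). The other 2 lay in its own introns.

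Plin2 (ENSMUSG00000028494.12, chr4:86648386-86670060, minus strand) encodes perilipin 2, which coats lipid droplets in cells other than adipocytes. The region over its TSS, chr4:86669921-86670180, measured 3.17, 2.62 and 4.02 in replicates 1, 2 and 4. A wider region of 620 bp next to it in an intron, chr4:86669261-86669880, measured 1.7, 1.57 and 1.68 and had no footprint in any library, while the region at the TSS had 6, 6 and 5. Its RefSeq promoter held a DR1 match for peroxisome proliferator-activated receptors (AGGTCANAGGTCA, up to 2 mismatches, in 3.86% of promoters), AGGTCAGGGGTCC at -225 to -213, with no footprint in any library. Of all recurrent regions with a DR1 match, 4.65% had one under footprints of all 3 libraries. The letters CACGTG at -4 to 2 of the Plin2 promoter were under a footprint in 1 library. Plin2 was the one gene of the 8 whose distal regions were all recurrent, 5 of 5, and each library had 5. The tallest lay 20.4 kb upstream, chr4:86690281-86690580, with heights of 1.96, 1.66 and 1.93, and 2 libraries had a footprint over TTGCGTAA there, a match to the C/EBP letters TTGCNNAA.

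Fabp4 (ENSMUSG00000062515.3, chr3:10204088-10208576, minus strand) encodes the fatty acid carrier known from adipocytes and macrophages. No library had a promoter peak, and the FDR was not under 0.05 at any base of its 2001 bp window, so no open site was detectable there in these libraries. It nevertheless had 4 recurrent distal regions, all upstream, at 4.83 kb, 33.4 kb, 38.8 kb and 41 kb. The tallest pair lie in introns of Fabp12, a related carrier gene, and their means were 1.26 ± 0.0134 and 1.01 ± 0.35 (SD, n = 3). The tallest, chr3:10247261-10247440, measured 1.26, 1.28 and 1.25 in replicates 1, 2 and 4 and is shown on the strand of Fabp4 because a C/EBP match lies within its capitals, the bases under footprints of all 3 libraries.
Fabp4 upstream region: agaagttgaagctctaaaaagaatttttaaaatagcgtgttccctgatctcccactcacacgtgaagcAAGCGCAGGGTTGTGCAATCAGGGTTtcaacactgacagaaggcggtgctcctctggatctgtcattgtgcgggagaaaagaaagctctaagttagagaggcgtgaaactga

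The capitals of that region form 1 run of 26 bases that contains the reverse complement of TTGCACAA. TTGCNNAA matched 9.27% of recurrent regions, 6.8% of which had a match under footprints of all 3 libraries, and 7 of the 40 regions of the 8 genes. The adipocyte markers give 0 of 6 promoter peaks in all 3 libraries, beside 50.5% of all genes. Plin1, which is also a storage gene, had low peaks in 2 libraries (0.742 and 0.869), and Adipoq and Lep had none.

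Srebf1 (ENSMUSG00000020538.15, chr11:60199089-60222581, minus strand) encodes SREBP-1, the transcription factor of fatty acid synthesis, whose 1a and 1c forms start from separate promoters. The promoter region at the annotated coding TSS, chr11:60220341-60220680, measured 4.48, 4.47 and 8.74 in replicates 1, 2 and 4. Replicate 4 stands above the other 2, with the percentile 76.9 of promoter peaks against 59.6 and 66.3. The promoter region carried the most footprinted DNA of the 40 regions, 92 bases in 7 stretches shared by all 3 libraries. Its tallest distal region, 10.1 kb into the gene at chr11:60210421-60210620, measured 4.69, 3.91 and 5.82. It is distal only by the basic GENCODE annotation, because a curated RefSeq transcript of Srebf1 (variant 3) starts inside it at position 60210471. Its height was 1.05, 0.875 and 0.666 times that of the promoter region, so which was taller differed between libraries. The RefSeq promoters of both starts follow, the upstream one at chr11:60220578-60220877 and the downstream one at chr11:60210422-60210721, on the strand of the gene with capitals for bases under footprints of all 3 libraries.
Srebf1 upstream promoter: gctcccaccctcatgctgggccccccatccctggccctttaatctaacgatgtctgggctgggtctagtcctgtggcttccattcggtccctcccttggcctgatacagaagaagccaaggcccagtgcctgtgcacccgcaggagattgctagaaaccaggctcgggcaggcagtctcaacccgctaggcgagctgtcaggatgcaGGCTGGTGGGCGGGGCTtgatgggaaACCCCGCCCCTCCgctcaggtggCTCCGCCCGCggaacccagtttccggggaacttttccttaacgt
Srebf1 downstream promoter: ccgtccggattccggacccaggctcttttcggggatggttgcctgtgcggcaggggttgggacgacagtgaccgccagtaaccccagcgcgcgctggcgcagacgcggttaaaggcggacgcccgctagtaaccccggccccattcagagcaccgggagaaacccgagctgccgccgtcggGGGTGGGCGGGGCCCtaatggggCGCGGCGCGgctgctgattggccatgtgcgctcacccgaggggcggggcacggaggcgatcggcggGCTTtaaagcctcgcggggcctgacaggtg

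The upstream promoter had 3 GGGCGG matches between -36 and 14, counted from its RefSeq start, each under footprints of all 3 libraries. The downstream promoter had one such match at -65 to -60, and a second at -6 to -1 under footprints of 2 libraries. The downstream promoter held GGGTTACTGGCGGTCA at -182 to -167 on the opposite strand, equal to the Abca1 match in all letters outside the spacer. It lies at chr11:60210638-60210653, just beyond the edge of the region, and had no footprint in any library. Of bases, 70.7% were G or C in the downstream promoter and 62.7% in the upstream one, and the ratio of observed to expected CpG was 0.976 and 0.478. Another curated start, at position 60222581, lay 200 bp from a recurrent region 2.4 kb upstream of the coding TSS (chr11:60222781-60223220), whose heights were 2.35, 2.47 and 3.02. Srebf1 had 4 recurrent distal regions in all, the others in exons of Srebf1 and of the neighbouring gene Rai1.

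Over the 8 genes there were 56 distal regions, of which 32 were recurrent, 8 were in 2 libraries and 16 in 1. The recurrent share of 57.1% compares with 48.3% of 42922 distal regions in the genome. Of the 32, 20 lay upstream, 7 in introns of the gene itself and 19 in intergenic DNA, and 13 lay within 25 kb of the start. The genes averaged 5.42 ± 0.711 distal peaks per gene (SD, n = 3 libraries), with 5.62 in replicate 1, 4.62 in replicate 2 and 6 in replicate 4. All protein-coding genes averaged 2.69, 2.05 and 2.47 in those libraries. The median number of recurrent distal regions was 4 for the 8 genes and 1 for all genes (quartiles 0 and 3). Among the other lipid genes listed by role below it was 3, and 4 for those of storage and hydrolysis. It was 5.5 for the monocyte markers and 5 for the neutrophil granule markers. A median of 4 is therefore not particular to the 8 genes. Heights of the 32 ran from 0.495 to 4.69 in replicate 1, from 0.399 to 3.91 in replicate 2 and from 0.569 to 5.88 in replicate 4. Their medians of 1.27, 1.04 and 1.37 lay near the 1.16, 0.94 and 1.3 of all recurrent distal regions. In 4 of the 8 genes, Abcg1, Apoe, Lpl and Fabp4, the tallest recurrent distal region was taller than the promoter, which held for 30.7% of all genes. A missing promoter peak counted as lower, so for Apoe, Lpl and Fabp4 the comparison is not between heights measured in all 3 libraries. Of the 5 genes with a promoter peak in all 3 libraries, Abcg1 was the 1 with a taller distal region, beside 19.6% of such genes in the genome. At least 1 base under footprints of all 3 libraries was present in 19 of the 32 distal regions, beside 55.8% of all recurrent distal regions, and in 6 of the 8 recurrent promoter regions, beside 70.8% of all. The 19 include regions with as few as 1 base (Abca1 at 39.3 kb) and 3 bases (Scarb1 at 17.3 kb upstream).

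**Figure D3:**
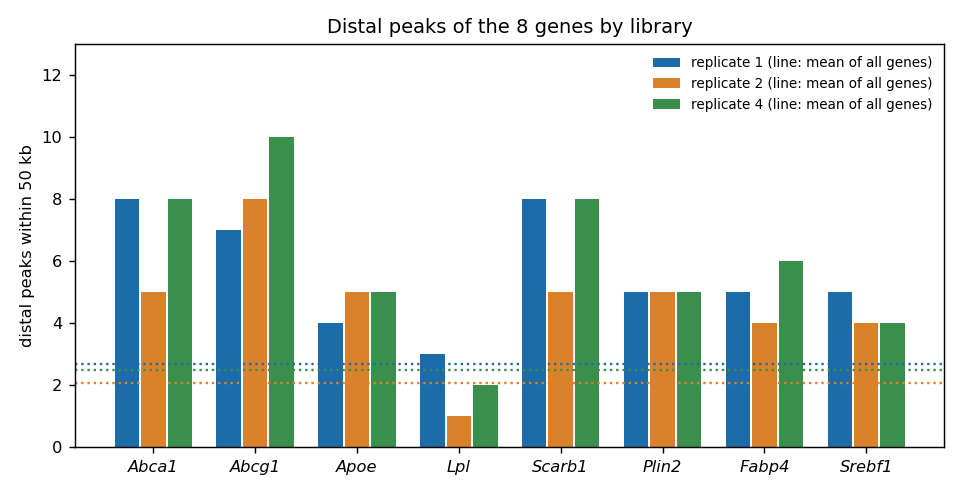
Number of distal peaks within 50 kb of each gene in replicates 1, 2 and 4 (bars), with the mean over all protein-coding genes in each library as dotted lines at 2.69, 2.05 and 2.47. Lpl, with 3, 1 and 2, lies below these lines in replicates 2 and 4, and Abcg1 reaches 10 in replicate 4. That count includes the peak 1.14 kb into Abcg1, which fell just outside the promoter window in replicate 4 alone.

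Genes of the same pathway from lists by role, which do not include the 8 genes, are given as counts of promoter peaks in all 3 libraries, against 50.5% of all genes. All 12 sterol sensors and regulators had one. The tallest were Rxrb, an RXR, at 12.6 ± 2.92, Insig1, which retains SREBP precursors, at 12.2 ± 2.7, and Scap, which escorts them, at 9.23 ± 2.94 (SD, n = 3). The lowest were Ppara at 0.624 ± 0.0336 and Rxra at 0.82 ± 0.0991. They lay at the percentiles 2.08 and 5.48 of genes with a promoter peak in all 3 libraries. The LXR genes lay apart in every library, with means of 8.7 ± 2.17 for Nr1h2 and 1.39 ± 0.379 for Nr1h3. Of 11 lipid synthesis genes 9 had one, led by Dhcr7, Lpcat3 and Hmgcs1 at 12, 9.31 and 7.75, and Acaca and Scd1 had no promoter peak in any library. Of 17 storage and hydrolysis genes 12 had one, led by Dgat1, Lipe and Abhd5, and Cidec, Gpihbp1, Plin4 and Plin5 had none.

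Of 13 cholesterol and lipoprotein transport genes 6 had such a peak in each library, led by the endosomal cholesterol genes Npc1 and Npc2 at 13 and 8.75 and by Abca7 at 5.14. Apoa1, Apoc4 and Lcat had none in any library. Of 8 genes of fatty acid binding and oxidation 5 had one, led by Acsl1, Acadm and Cpt1a, and the carriers Fabp1 and Fabp2 had none. Lipoprotein uptake had the smallest share, 2 of 7, among them the receptor gene Lrp1 at 3.53 ± 1.02 (SD, n = 3). Msr1, Olr1 and Vldlr had no promoter peak in any library, although Msr1 had 4 recurrent distal regions. Over all lists the count was 46 of 68 genes, or 67.6%.

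**Figure D4:**
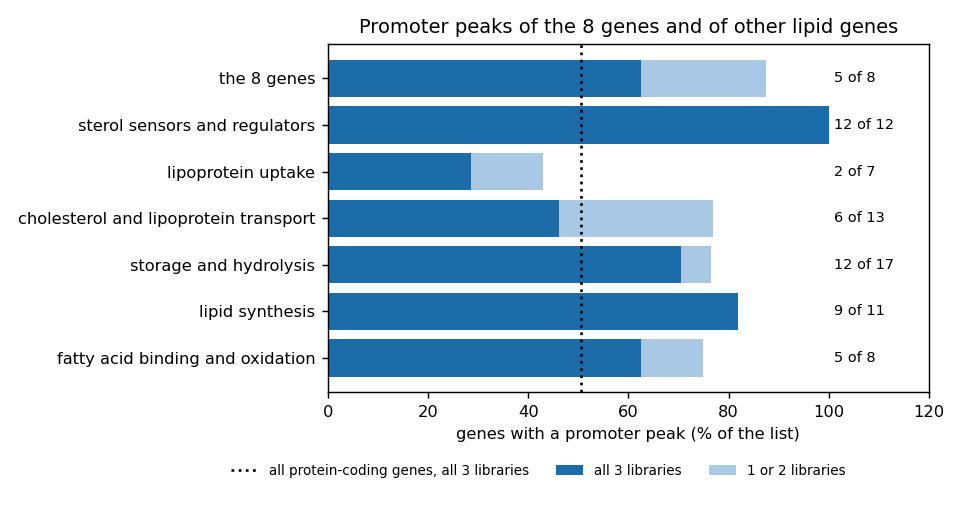
Share of genes with a promoter peak in all 3 libraries (dark) and in 1 or 2 libraries (light), in percent of each list, for the 8 genes and 6 lists of other lipid genes, with the 50.5% of all protein-coding genes as a dotted line. Sterol sensors and regulators stand at 12 of 12 and lipoprotein uptake at 2 of 7.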

How the data were processed

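DNase-seq libraries of mouse monocytes were used as deposited, on mm10 and called per library, per the deposited descriptions. Peak heights are a signal the authors gave per peak, of unstated scale, in whole multiples of 1 step per library (0.00825, 0.00887 and 0.0124 in replicates 1, 2 and 4). The authors' FDR intervals, of the p-value kind, are listed under 0.05, and the deposited footprints carry 1 constant, 0.01, which ranks nothing. The aligner and the callers of peaks and footprints are not given in the sources read. The effect of mapping an F1 cross to a C57BL/6J-based genome was not tested.

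The longer of 2 peak lists per library was used, on chromosomes 1 to 19, X and Y. Peaks were merged into regions where they overlapped by at least 1 bp, in Python with pandas 2.3.3. The FDR intervals near the genes were selected with bedtools 2.31.1, and genome sequence was read with pysam 0.24.0. GENCODE M21 basic gave 41438 coding TSSs. Sequences came from RefSeq (GRCm38.p6), whose promoter table matched 4 of the 8 genes (Abca1, Apoe, Plin2 and Srebf1). Motifs were searched on both strands. The counting code was tested on simulated data. No tests were run, since 1 group holds all libraries, and depth is unknown. Other lipid genes were named by a rule, the 3 tallest promoters of each list and up to 4 genes with no promoter peak, in alphabetical order. Some genes that this rule names are not reported here. Nr1h2, Nr1h3, Ppara, Rxra, Msr1's distal regions, Fasn, Scd2 and Scd3 were named after their values were seen. The genes, lists and windows were chosen with earlier results of these data known. The alternatives were other peak lists, windows, overlaps and start sites, scaled heights, and leaving out each replicate.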

Additional observations from a re-analysis of the deposited data

How the results depend on the processing

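The number of distal peaks depended on the peak list and the window. The mean per gene and library, 5.42 as reported, was 3.88 in the shorter lists, 2.83 in the taller 50% of peaks, 2.5 within 25 kb, 9.42 within 100 kb and 6.33 with promoter windows of other genes counted. Over all protein-coding genes the mean of 2.4 became 1.59, 1.18, 1.21, 4.7 and 3.9 in the same order, so the background moved in the same direction. The 32 recurrent distal regions became 15 in the taller 50% of peaks, 13 within 25 kb and 58 within 100 kb, where the settings by construction hold fewer or more peaks. The count of genes with a promoter peak in all 3 libraries stayed between 4 (shorter lists, without Abcg1) and 6 (a window of 2000 bp, with Apoe). With a replicate left out, a peak in each of the remaining libraries was enough for a gene or region to count. The numbers of genes with a promoter peak or a footprint there therefore could not fall. The number of recurrent distal regions was eased in the same way, so these counts do not show stability. Leaving out each replicate gave 5 to 6 genes with a promoter peak, 5 to 6 with a footprint there and 33 to 37 recurrent distal regions. The means were 5.12 to 5.81 distal peaks, and 4 to 4 genes had a taller distal region. That last count was 5 with a promoter window of 500 bp, where Abca1 joined, and 5 within 100 kb, where Scarb1 joined, as it also did with promoter windows of other genes counted. It was 3 in the shorter lists, in the taller 50% of peaks and within 25 kb, each without Lpl. Of 40 promoter heights under the alternatives, 32 moved by less than 1 SD, 1 was higher and 7 lower, 4 of these because dividing by the median changes the scale. Of 64 distal counts of single genes, 31 moved by less than 1 SD, 11 were higher and 22 lower. No paired analysis was possible because all 3 libraries form 1 group. Depth is unknown, so a missing peak says only that none was called.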
